A study of Mus musculus with 23 samples.

Results

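The Fc receptor genes described here were Fcgr1, Fcgr2b, Fcgr3, Fcgr4, Fcer1g and Fcgrt, chosen by symbol as 6 of the 53090 genes in the tables. They were measured by poly(A) RNA sequencing in 23 libraries of microglia, the resident macrophages of the brain, sorted by flow cytometry from female C57BL/6 mice. The 4 groups were young (n = 7), young after induced microglia repopulation (n = 3), old (n = 5) and old after induced repopulation (n = 8). In the repopulation protocol, microglia are depleted with PLX5622, an inhibitor of the receptor CSF1R given at 1200 ppm in AIN-76A chow, and then return. The same protocol names control mice on that chow without the drug; the chow of the young and old groups, their ages and the length of treatment are not given in the sources used here. CD11b magnetic selection with culture is also described there, while sorted cells are named for the RNA. The comparisons ask how the receptor genes differ with age, and between returned and resident microglia at each age.

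Fc receptors bind the constant part of antibodies and link antibody-coated targets to phagocytes such as microglia. The activating receptors signal through a shared adaptor, FcRγ, encoded by Fcer1g, whose ITAM motif is phosphorylated by Src-family kinases and recruits the kinase Syk. The inhibitory receptor encoded by Fcgr2b carries an ITIM motif that recruits the phosphatase SHIP1, encoded by Inpp5d, and restrains that signal. The neonatal Fc receptor, whose heavy chain is Fcgrt, pairs with B2m and returns IgG and albumin from endosomes to the cell surface. Microglia, monocytes and border macrophages are all known to express the activating receptors.

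Of the 6 genes 1 passed the test, in 1 of the comparisons, where 15.2% of all genes tested passed. Fcgrt fell in old repopulated microglia to 0.646-fold of the young level, and all 8 old repopulated libraries lay below all 7 young ones. Of all genes tested, 1.26% were separated in this way. Fcgr3 was the most variable abundant member: its level in old repopulated libraries ran from 411 to 1063 CPM. Fcgr1, Fcgr2b and Fcgr4 had their highest values in the same old library. Fcer1g differed least among libraries.

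4 of these genes lie within 1 stretch of chromosome 1 in GRCm38 (GENCODE M21 annotation), and all 6 are protein-coding. Fcgr2b (ENSMUSG00000026656.15) spans chr1:170958617-170976547 on the minus strand. Fcgr4 (ENSMUSG00000059089.4) spans chr1:171018920-171029761 on the plus strand, and Fcgr3 (ENSMUSG00000059498.13) spans chr1:171051174-171064935 on the minus strand. Fcer1g (ENSMUSG00000058715.11) follows at chr1:171229572-171234365, minus strand. Fcgr1 (ENSMUSG00000015947.10) is at chr3:96282909-96293969, and Fcgrt (ENSMUSG00000003420.8) is at chr7:45092990-45103851, both on the minus strand. Fcgr2b also overlaps Gm38204, annotated as antisense; the kit kept strand, but no source used here states whether counting used it, so reads of this pair may not be separable.

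Fcgr2b, the inhibitor, and Fcgr3, an activator, share coding sequence for their antibody-binding part, which bears on how reads were divided between them. The longest stretch identical in both was 129 bases, running from exon 3 into exon 4 of each gene: coding bases 278 to 406 of Fcgr2b-201 and 263 to 391 of Fcgr3-201, counted from 1 at the start codon. With the intron between those exons it spans chr1:170966674-170968081 in Fcgr2b and chr1:171054167-171057792 in Fcgr3 (minus strand, GRCm38). It is shown because a 50-base read from it fits both genes.
Fcgr2b and Fcgr3 shared coding stretch: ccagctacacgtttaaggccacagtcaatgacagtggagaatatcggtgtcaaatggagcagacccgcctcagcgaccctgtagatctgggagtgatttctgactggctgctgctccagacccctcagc
Of the distinct 50-base windows of Fcgr3 transcripts, 9.58% (166 of 1733) also occurred in Fcgr2b, and none in another gene. Of those of Fcgr2b, 2.92% (166 of 5685) occurred in Fcgr3 and 4.38% in any other gene. The other 4 members had 0 shared windows. The deposited expected counts show the same split: they were whole numbers (within 1e-06) in 23 of 23 libraries for Fcgr1, Fcgr4, Fcer1g and Fcgrt, and in 0 of 23 for Fcgr2b and Fcgr3. Values of this pair therefore rest partly on the authors' division of shared reads.

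Depth was even, from 43657297 to 58189402 counts a library, and all 6 members passed the filter on low counts that left 18720 genes. Levels for comparing libraries are given as CPM, counts scaled to a common library size with edgeR's TMM factors. A gene was called when its adjusted p in edgeR's quasi-likelihood test, over all 18720 genes, was under 0.05. Values after ± are standard deviations (SD) for levels and standard errors (SE) for log2 fold changes. Nothing in the labels says whether libraries of a group came from separate mice, so p-values measure the spread between these libraries. Libraries are numbered within a group as names only. Their titles carry numbers from 1 to 24 in which the order of groups repeats after 11: numbers 1 to 11 hold 3 young, 2 old and 5 old repopulated libraries, and numbers 12 to 24 hold 4 young, 3 young repopulated, 3 old and 3 old repopulated. Values within each run of numbers are given for some comparisons, not for all in which they differ. What the runs stand for is not stated. The number of genes with a count ran from 16399 to 19953 in numbers 1 to 11. In numbers 12 to 24 it ran from 20099 to 22208, apart from young repopulated library 2 at 17620.

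The sorted cells carried the defining microglia genes, in unequal amounts. The sum of 10 microglia markers ran from 23747 to 28637 CPM in young, 21820 to 25460 in young repopulated, 9483 to 24551 in old and 8746 to 28794 in old repopulated libraries. The sum of 8 monocyte markers ran from 273 to 1654, 623 to 1111, 492 to 4487 and 364 to 7562 CPM in the same order. The B-cell genes Pax5 and Blk were at 0 in all 7 young libraries and reached at most 0.230 and 0.244 CPM in any library, and Cd79a and Ms4a1 at most 0.403 and 0.436. Cd79b, of the same list, was present in every library, and it was called lower in old repopulated against young (-1.63, edgeR adjusted p = 0.00892), from 16.2 ± 1.93 to 5.24 ± 3.74 CPM, and in young repopulated against young (-2.43, edgeR adjusted p = 0.0454). In sorted bulk RNA, fewer cells of a type and less RNA per cell cannot be told apart.

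Compared per transcript length, in deposited TPM (transcripts scaled for length and depth), Fcgr3 and Fcer1g were the most abundant members. In young microglia Fcgr3 averaged 1217 ± 144 TPM (SD, n = 7) and Fcer1g 1206 ± 42.9. The order of this pair was not fixed: Fcgr3 was above Fcer1g in 4 of 7 young, 2 of 3 young repopulated, 1 of 5 old and 1 of 8 old repopulated libraries. Both stood above Fcgr2b in 23 of 23 libraries. Fcgr2b (421 ± 39.1 TPM in young) and Fcgr1 (352 ± 41.7) came next, with Fcgr2b the higher in 19 of 23. Fcgr1 was above Fcgr4 in 23 of 23 libraries. Fcgr4 (97.9 ± 13.3 TPM in young) and Fcgrt (84.2 ± 5.36) were lowest, with Fcgr4 the higher in 20 of 23. So the neighbours Fcgr3 and Fcer1g, Fcgr2b and Fcgr1, and Fcgr4 and Fcgrt changed places in some libraries, while the 3 tiers kept their order.

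**Figure D1:**
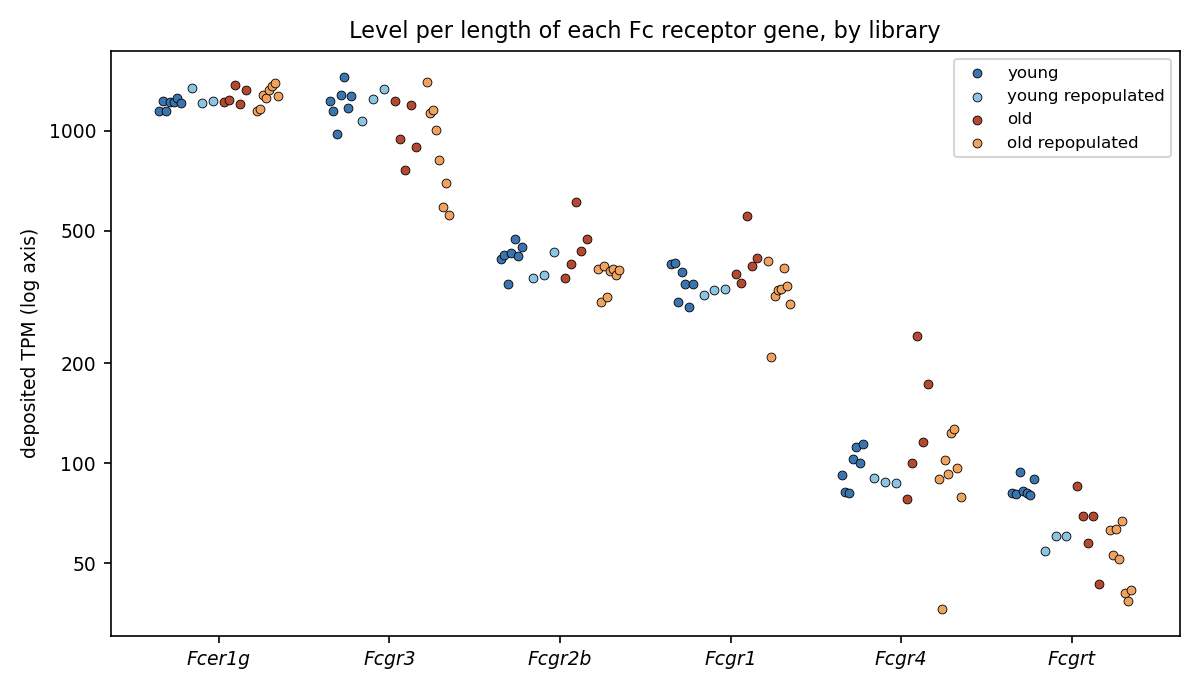
Deposited TPM (log axis) of each Fc receptor gene in 23 libraries, 1 point a library, coloured by group. Fcer1g and Fcgr3 form the top tier (young means 1206 and 1217 TPM), Fcgr2b and Fcgr1 the middle, and Fcgr4 and Fcgrt the lowest.

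The balance of activating to inhibitory message was tight in young libraries and wider in old and old repopulated ones. The summed TPM of Fcgr1, Fcgr3 and Fcgr4 over that of Fcgr2b lay between 3.71 and 4.18 in the 7 young libraries and between 4.07 and 4.52 in the 3 young repopulated ones. It ran from 2.55 to 4.63 in old and from 2.46 to 4.94 in old repopulated libraries. In old repopulated libraries the runs of numbers did not overlap. The ratio was 3.36 to 4.94 in numbers 1 to 11 and 2.46 to 3.09 in numbers 12 to 24. In old libraries the runs overlapped, at 3.52 to 4.63 in numbers 1 to 11 and 2.55 to 3.93 in numbers 12 to 24. These ratios are a description, without a test. They share the uncertainty of the reads divided between Fcgr3 and Fcgr2b.

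The call count over the 6 members stayed near what all genes gave. For old against young, edgeR called 0 of 6 members (background over all 18720 genes: 2.83%), and 2 had an unadjusted p under 0.05 (background 15.3%). DESeq2 called 0 (background 5.18%) and limma-voom 1, Fcgrt (12.6%). For old repopulated against old, edgeR called 0 (background 0.278%), 2 were under 0.05 unadjusted (10.4%), and DESeq2 and voom called 0 (1.67% and 2.21%). For young repopulated against young, edgeR called 0 (1.34%), 1 was under 0.05 unadjusted (15.1%), DESeq2 called 0 (4.46%) and voom 1, Fcgrt (13.8%). For old repopulated against young, edgeR called 1 of 6, Fcgrt, in the lower direction (background 15.2% in either direction and 5.92% lower), and 2 were under 0.05 unadjusted (30.5%). DESeq2 called 1 there (19.7%) and voom 3, Fcgr3, Fcer1g and Fcgrt (35.5%). For old repopulated against young repopulated, edgeR called 0 of 6 members and 0% of all genes, 0 members were under 0.05 unadjusted (11.7%), DESeq2 called 0 (0.491%) and voom 1, Fcgr3 (17%). The interaction asks whether the difference between repopulated and resident microglia itself differed with age. It gave 0 of 6 members in edgeR (background 0%), 0 under 0.05 unadjusted (8.24%), and 0 in DESeq2 and voom (0.246% and 0.807%). These comparisons share groups: the young libraries serve 3 of them, and the old repopulated libraries 3.

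**Figure D2:**
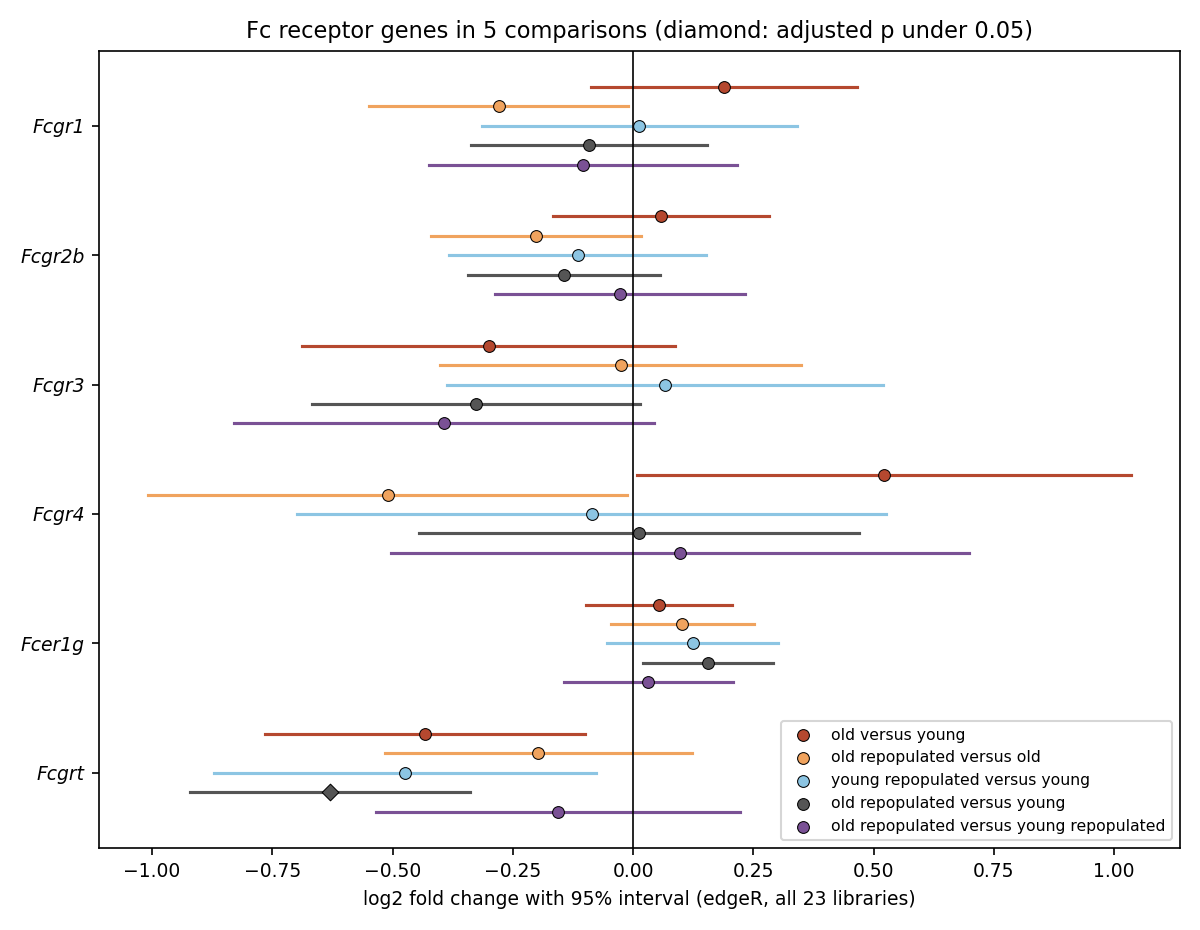
Log2 fold change in CPM with its 95% interval for each Fc receptor gene in the 5 comparisons between groups; diamonds mark an adjusted p under 0.05. The single diamond is Fcgrt in old repopulated against young, at -0.63.

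The median log2 fold change of the 6 members stood beside that of all genes as 0.06 and -0.01 for old against young, and as -0.20 and 0.0037 for old repopulated against old. It was -0.04 and -0.04 for young repopulated against young, -0.12 and -0.02 for old repopulated against young, and -0.07 and 0.05 for old repopulated against young repopulated. For the interaction it was -0.09 and 0.04.

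**Figure D3:**
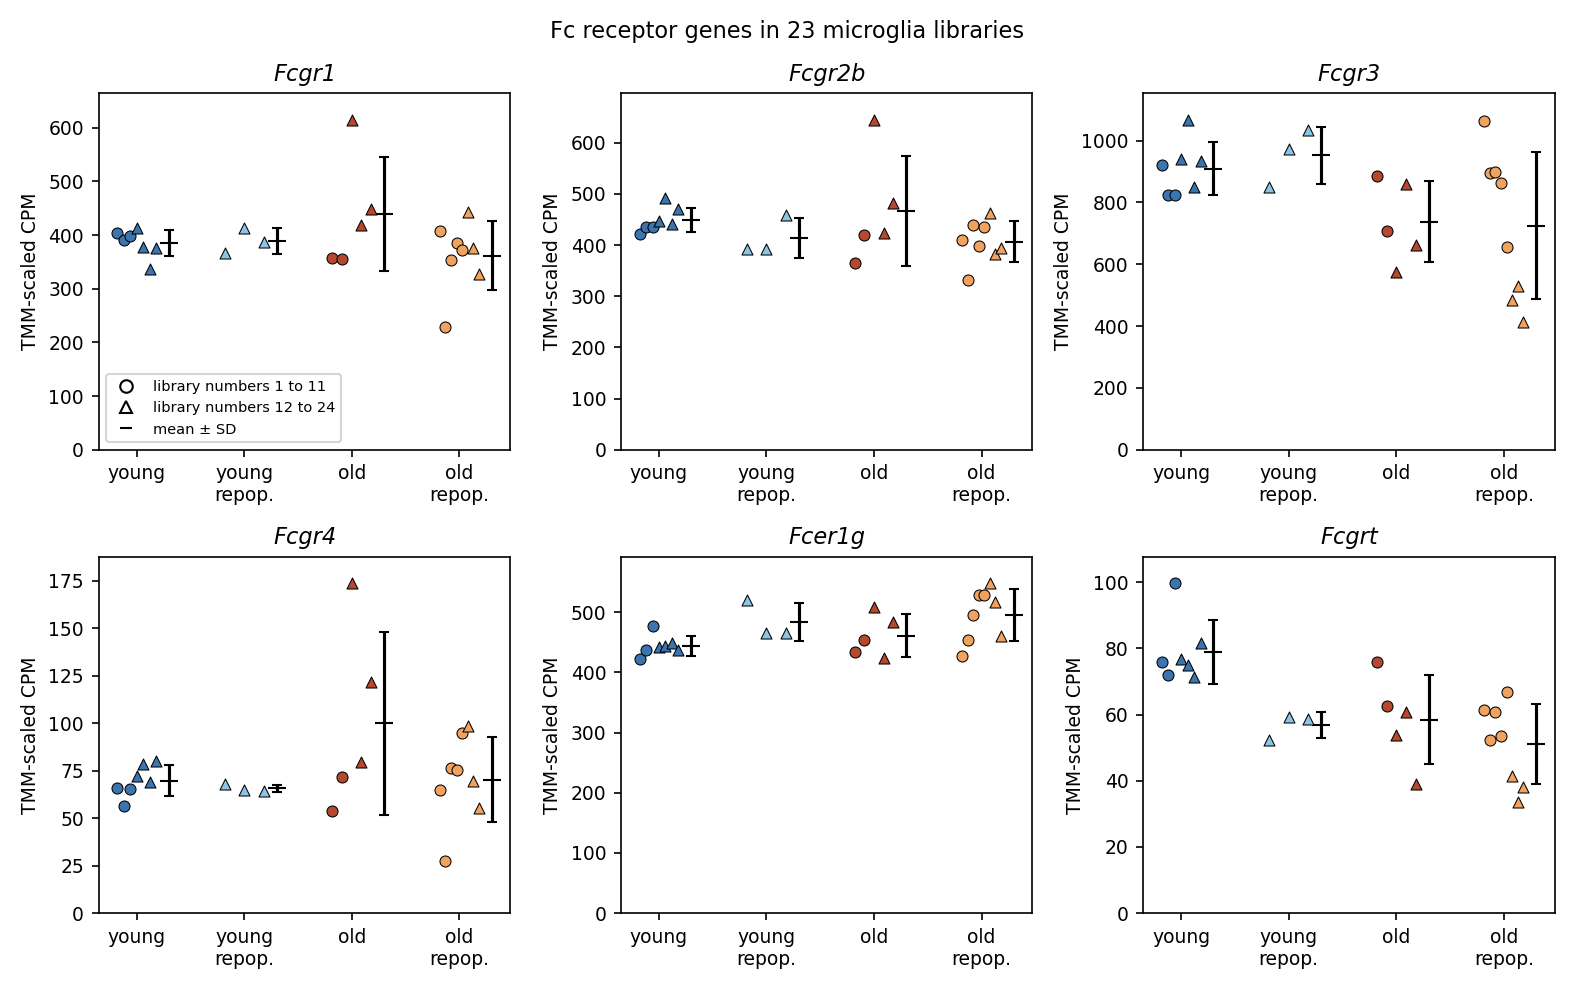
CPM of each Fc receptor gene in every library by group, with circles for library numbers 1 to 11, triangles for 12 to 24 and the mean ± SD beside the points. Fcgrt is at 71.4 CPM or more in every young library and at 67.0 or less in every old repopulated one, and Fcgr3 in old repopulated libraries falls into circles at 656 to 1063 and triangles at 411 to 529.

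Fcgr1 encodes the high-affinity IgG receptor (CD64), an activating receptor and a common marker of macrophages. Its level in young microglia had a lowest, median and highest value of 337, 391 and 413 CPM. The 3 young repopulated libraries read 366, 414 and 387 CPM, in library order. The 5 old libraries read 358, 356, 615, 419 and 449 CPM. Old library 3 was the highest of all 23. Old repopulated libraries had a lowest, median and highest of 229.6, 374 and 443 CPM, and library 2 of that group was the lowest of all. Every pair of groups overlapped. The coefficient of variation was 6.51% in young and 24.1% in old.

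The estimate for Fcgr1 in old against young was 0.19 ± 0.13 log2 units (95% interval -0.09 to 0.47, edgeR adjusted p = 0.556). In old repopulated against old it was -0.28 ± 0.13 (-0.55 to -0.01, edgeR adjusted p = 0.446), and in young repopulated against young 0.01 ± 0.16 (-0.31 to 0.34). Old repopulated libraries differed from young by -0.09 ± 0.12 (-0.34 to 0.15) and from young repopulated by -0.10 ± 0.15 (-0.42 to 0.22). None passed the threshold. The interval that reaches farthest from 0 is that of old repopulated against old, down to -0.55. Within numbers 1 to 11 the old-against-young value was -0.16, and within 12 to 24 it was 0.40 (edgeR adjusted p = 0.0594).

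The promoters of Fcgr1, Fcgr4 and Fcgr3 are printed because the levels of Fcgr1 and Fcgr4 are set beside interferon response genes further on, and to compare the 3 activating receptors. Windows run from 250 bases before to 50 after the RefSeq start (GRCm38.p6), 5′ to 3′ on the gene's strand. Capitals mark 3 motifs searched on both strands: GAS (TTCNNNGAA), ISRE (GAAA, any 2 bases, GAAA) and the PU.1 core (GAGGAA, printed TTCCTC on the other strand). The windows are chr3:96293920-96294219 (minus) for Fcgr1, chr1:171018676-171018975 (plus) for Fcgr4 and chr1:171059354-171059653 (minus) for the first of the RefSeq starts of Fcgr3.
Fcgr1 promoter: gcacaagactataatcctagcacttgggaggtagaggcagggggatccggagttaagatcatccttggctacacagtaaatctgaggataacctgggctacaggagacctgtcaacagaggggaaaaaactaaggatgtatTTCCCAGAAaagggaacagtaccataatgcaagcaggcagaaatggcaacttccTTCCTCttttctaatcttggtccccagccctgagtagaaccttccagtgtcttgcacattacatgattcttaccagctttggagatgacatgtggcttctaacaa
Fcgr4 promoter: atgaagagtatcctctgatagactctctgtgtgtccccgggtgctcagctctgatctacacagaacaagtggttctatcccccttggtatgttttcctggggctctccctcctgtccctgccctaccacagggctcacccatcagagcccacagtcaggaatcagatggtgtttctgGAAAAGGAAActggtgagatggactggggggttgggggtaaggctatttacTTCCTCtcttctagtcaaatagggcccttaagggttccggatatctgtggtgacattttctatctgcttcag
Fcgr3 promoter: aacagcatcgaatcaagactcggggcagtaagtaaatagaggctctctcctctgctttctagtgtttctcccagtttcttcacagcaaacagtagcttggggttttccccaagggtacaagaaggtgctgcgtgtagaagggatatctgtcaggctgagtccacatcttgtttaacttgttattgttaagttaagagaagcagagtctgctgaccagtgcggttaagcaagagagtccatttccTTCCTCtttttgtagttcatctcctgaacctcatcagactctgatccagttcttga
A GAS match was in 1 of 6 members, Fcgr1, at -109 from the start, and in 8.30% of all 32851 RefSeq promoters. An ISRE match was in 1 of 6, Fcgr4, at -73, and in 3.44% of all promoters. The PU.1 core was in 3 of 6, at -55 in Fcgr1, -22 in Fcgr4 and -6 in Fcgr3, and in 28.3% of all. Fcgr1 and Fcgr3 also shared a 14-base run over that core, ttccttcctctttt, at -59 and -10. The other motifs without capitals were the CRE (TGACGTCA; 0 of 6, 1.79% of all) and an NF-kappaB pattern (GGGA, any 4 bases, CC; 4 of 6, 20.7% of all). A match is a description of letters, not a bound site.

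Fcgr3 encodes a low-affinity activating IgG receptor (CD16). Its young levels were 825, 919 and 1067 CPM (lowest, median, highest), and the young repopulated libraries read 849.9, 972 and 1033 CPM. The old libraries read 886, 707, 576, 859 and 661 CPM. Only libraries 1 and 4 of that group reached the young range. In old repopulated microglia libraries 1 to 5 read 1063, 895, 899, 861 and 656 CPM, and libraries 6 to 8 read 483, 529 and 411 CPM. Those last 3 are the old repopulated libraries of numbers 12 to 24, and they were the lowest of all 23 libraries. The group as a whole still overlapped young.

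Over all libraries, Fcgr3 in old repopulated against young was -0.33 ± 0.16 log2 units (95% interval -0.67 to 0.01, edgeR adjusted p = 0.183). With the run of numbers as a term Fcgr3 was called in this comparison. Of 11 other settings, 7 kept its direction and its side of the threshold. The value was 0.04 within numbers 1 to 11 (edgeR adjusted p = 0.966) and -0.99 within 12 to 24 (edgeR adjusted p = 0.000301; background 41.1% of genes called in that fit). The difference between the runs, a fit chosen after the data were seen, was -1.06 ± 0.23 (edgeR adjusted p = 0.0455; 0.594% of 17168 genes called). Against old, old repopulated libraries stood at -0.03 ± 0.18 overall (-0.40 to 0.35), at 0.14 within numbers 1 to 11 and at -0.56 within 12 to 24 (edgeR adjusted p = 0.0332; background 12.7%). Against young repopulated, which exist only in numbers 12 to 24, they stood at -0.39 ± 0.21 (-0.83 to 0.04, edgeR adjusted p = 0.457) and at -1.03 within that run (edgeR adjusted p = 0.00076; background 36.3%).

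Old against young was -0.30 ± 0.19 (-0.69 to 0.09, edgeR adjusted p = 0.485), and young repopulated against young 0.07 ± 0.22 (-0.39 to 0.52). Limma-voom with sample weights gave -0.62 for old repopulated against young (voom adjusted p = 0.00106) and -0.64 against young repopulated (voom adjusted p = 0.0128).

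Marker genes moved with Fcgr3 from library to library. Old repopulated library 8 had the lowest Fcgr3, 411 CPM, with 7510 CPM of monocyte and 8746 CPM of microglia markers. Library 6 had 483 CPM of Fcgr3, 7562 of monocyte and 9208 of microglia markers. Old repopulated library 1, with the highest Fcgr3 of its group at 1063 CPM, had 364 CPM of monocyte and 28794 of microglia markers. Old library 3 lay with the first kind, at 576, 4487 and 9483 CPM. In old repopulated against young, 6 of 8 monocyte markers were called higher (among them Ly6c2, Ccr2, Chil3, S100a4 and Vcan), as were 5 of 7 border-associated macrophage markers (F13a1, Pf4, Clec10a, Mrc1 and Cbr2) and 5 of 8 neutrophil markers (Mmp8, Retnlg, S100a8, Cxcr2 and S100a9), and 3 of 10 microglia markers (P2ry12, Csf1r and Olfml3) were called lower. Cd163 and Lyve1 of the border-macrophage list were not called there, at -0.73 (edgeR adjusted p = 0.200) and 0.35 (edgeR adjusted p = 0.689). The border-macrophage sum ran from 50.5 to 194 CPM in young and from 54.5 to 1059 in old repopulated libraries. No monocyte marker was at 0 in any library, and Ly6c2 ran from 0.24 to 7.76 CPM in young and from 2.97 to 86.4 in old repopulated libraries. The part of these cells in the Fcgr3 values was not tested.

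**Figure D4:**
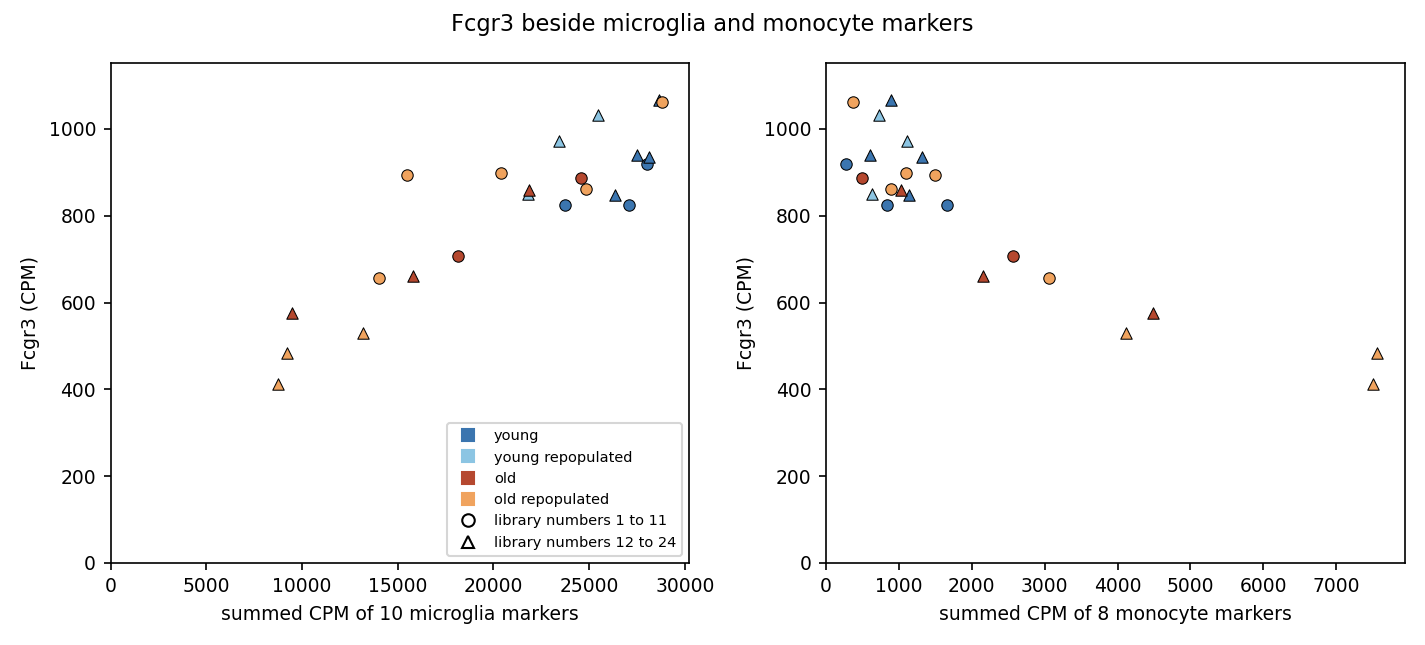
Fcgr3 (CPM) against the summed CPM of 10 microglia markers (left) and of 8 monocyte markers (right), 1 point a library, coloured by group, with circles for library numbers 1 to 11 and triangles for 12 to 24. Old repopulated libraries 6 and 8, at 483 and 411 CPM of Fcgr3, have the lowest microglia sums of their group (9208 and 8746) and the highest monocyte sums (7562 and 7510).

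Fcgr4 encodes an activating receptor for IgG2 subclasses and was the least abundant activating receptor. Young libraries had a lowest, median and highest of 56.6, 69.1 and 79.9 CPM. Young repopulated libraries were close together at 67.8, 65.1 and 64.1 CPM. Old libraries read 53.9, 71.5, 174, 79.3 and 122 CPM. Libraries 3 and 5 stood above every young library. Old repopulated libraries ran from 27.5 through a median of 72.5 to 98.5 CPM, with library 2 lowest. All groups overlapped.

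In old against young, Fcgr4 had the largest positive value of the 6 members, 0.52 ± 0.25 log2 units (95% interval 0.01 to 1.03, edgeR adjusted p = 0.317). It was 0.23 without old library 3 (edgeR adjusted p = 0.903). The value was -0.00363 within numbers 1 to 11 and 0.74 within 12 to 24 (edgeR adjusted p = 0.0376; background 15.7%). Old repopulated against old was -0.51 ± 0.24 (-1.01 to -0.01, edgeR adjusted p = 0.460), and -0.22 without old library 3. The other comparisons were near 0: -0.09 ± 0.30 for young repopulated against young, 0.01 ± 0.22 for old repopulated against young and 0.10 ± 0.29 for old repopulated against young repopulated.

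Fcgr2b, the inhibitory receptor, read 422, 442 and 492 CPM in young libraries (lowest, median, highest) and 392, 392 and 460 CPM in young repopulated ones. Old libraries read 366, 420.3, 645, 423 and 483 CPM. Old library 3 was again the highest of all. Old repopulated libraries ran from 331 through 404 to 463 CPM, with library 2 lowest. All groups overlapped. The log2 fold change was 0.06 ± 0.11 for old against young (95% interval -0.17 to 0.28, edgeR adjusted p = 0.870) and -0.20 ± 0.11 for old repopulated against old (-0.42 to 0.02, edgeR adjusted p = 0.541). It was -0.12 ± 0.13 for young repopulated against young (-0.38 to 0.15), -0.14 ± 0.10 for old repopulated against young (-0.34 to 0.06) and -0.03 ± 0.13 for old repopulated against young repopulated (-0.29 to 0.23). The largest difference these intervals leave room for is a fall of 0.42 log2 units, in old repopulated against old.

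Fcer1g, the shared signalling adaptor, was the most even member, with coefficients of variation from 3.73% in young to 8.71% in old repopulated libraries. Young libraries read 422, 442 and 476 CPM (lowest, median, highest). Young repopulated libraries read 519.8, 465.7 and 465.7 CPM. Old libraries read 433, 454, 509, 424 and 484 CPM, and old repopulated ones ran from 427 through 506 to 548 CPM. Groups overlapped in each comparison. Old repopulated against young was 0.16 ± 0.06 log2 units (95% interval 0.02 to 0.29, edgeR adjusted p = 0.104). It passed without old repopulated library 1 (0.21, edgeR adjusted p = 0.0204; background 25.7%) and by voom (0.19, voom adjusted p = 0.00558). Old against young was 0.05 ± 0.07 (-0.10 to 0.21), old repopulated against old 0.10 ± 0.07 (-0.05 to 0.25), young repopulated against young 0.12 ± 0.09 (-0.05 to 0.30) and old repopulated against young repopulated 0.03 ± 0.08 (-0.14 to 0.21).

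Fcgrt, the heavy chain of the neonatal Fc receptor, gave the only call. The promoter of this member is printed for comparison with the activating receptors, from chr7:45103773-45104072 (minus strand, GRCm38.p6, RefSeq).
Fcgrt promoter: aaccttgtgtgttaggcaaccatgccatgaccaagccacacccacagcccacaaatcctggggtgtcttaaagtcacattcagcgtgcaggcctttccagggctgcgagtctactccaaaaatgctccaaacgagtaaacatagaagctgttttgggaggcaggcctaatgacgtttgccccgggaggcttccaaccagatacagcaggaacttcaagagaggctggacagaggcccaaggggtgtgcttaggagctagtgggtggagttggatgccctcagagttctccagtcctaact
It has no capitals because none of the GAS, ISRE and PU.1 core patterns occurs in this window. Young libraries read 71.4, 75.9 and 99.7 CPM (lowest, median, highest). Young repopulated libraries read 52.4, 59.3 and 58.8 CPM, and old ones 75.9, 62.7, 53.9, 61.0 and 39.0 CPM. Old repopulated libraries ran from 33.7 through 52.9 to 67.0 CPM. Every repopulated library of either age was below every young resident library. Among old libraries, only library 1 reached the young range.

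Fcgrt fell by 0.63 on the log2 scale in old repopulated against young (SE 0.14, 95% interval -0.92 to -0.34, edgeR adjusted p = 0.00532), lower in 8 of 8 libraries; groups were fully separated in this direction for 1.26% of all genes. Leaving out each library in turn gave -0.70 to -0.54, with edgeR adjusted p from 0.00262 to 0.0127. Within numbers 1 to 11 the value was -0.48 and missed the threshold (edgeR adjusted p = 0.359, where 0.0107% of genes passed). Within 12 to 24 it was -1.01 (edgeR adjusted p = 0.000152, where 41.1% of genes passed). The difference between the runs was -0.56 ± 0.20 (edgeR adjusted p = 0.135).

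Markers of other cells moved in the same comparisons as Fcgrt. In old repopulated against young, 6 of 8 monocyte, 5 of 7 border-macrophage and 5 of 8 neutrophil markers were called higher, and 3 of 10 microglia markers lower. The 3 libraries with the lowest Fcgrt of the old repopulated group, its libraries 6, 7 and 8 (41.4, 33.7 and 38.2 CPM), had its 3 highest monocyte sums (7562, 4111 and 7510 CPM). Endothelial cells are also known to express Fcgrt. Of 4 endothelial markers, Pecam1 was called lower in old repopulated against young (-1.56, edgeR adjusted p = 0.00309), from 18.8 ± 3.21 to 6.38 ± 4.09 CPM, and Flt1 was called higher (1.16, edgeR adjusted p = 0.00206). Both were also called in young repopulated against young, Pecam1 at -1.94 (edgeR adjusted p = 0.0403) and Flt1 at 1.11 (edgeR adjusted p = 0.0488). There edgeR called 0 microglia and 0 monocyte markers, with 0 and 2 at an unadjusted p under 0.05. DESeq2 called 0 and 1 of them, and voom 1 and 2. Of 7 border-macrophage markers edgeR called 0 there, with 5 at an unadjusted p under 0.05, 0 by DESeq2 and 4 by voom. The fold change was above 0 for 6 of these 7. Their sum ran from 239 to 277 CPM in young repopulated libraries, beside 50.5 to 194 in young. Of 8 neutrophil markers edgeR called 1 higher there. The endothelial sum ran from 24.3 to 49.8 CPM in young, 21.7 to 28.4 in young repopulated, 35.7 to 39.5 in old and 16.2 to 41.6 in old repopulated libraries, and none of the 4 markers was at 0 in any library. The part of these cells in the Fcgrt values was not tested.

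Young repopulated against young was -0.47 ± 0.19 (95% interval -0.87 to -0.08, edgeR adjusted p = 0.238), with 3 of 3 libraries below all young ones; 6.11% of genes were separated this way. It passed by voom (-0.43, voom adjusted p = 0.0425) and in a fit of those groups alone (-0.46, edgeR adjusted p = 0.0222; background 7.5%). Under 10 other settings the value ran from -0.50 to -0.31, and 8 of them left it short of the threshold. Old against young was -0.43 ± 0.16 (-0.77 to -0.10, edgeR adjusted p = 0.172). That comparison passed by voom (-0.51, voom adjusted p = 0.0187) and with the run of numbers as a term (-0.44, edgeR adjusted p = 0.0468, background 3.3%). It also passed within numbers 12 to 24 (-0.56, edgeR adjusted p = 0.0118, background 15.7%). Under 11 other settings that value ran from -0.56 to -0.25, and 8 of them left it short of the threshold. In numbers 1 to 11, mean Fcgrt was 82.5 CPM in 3 young and 69.3 CPM in 2 old libraries. Old repopulated against old was -0.20 ± 0.15 (-0.52 to 0.12). Against young repopulated it was -0.16 ± 0.18 (-0.53 to 0.22) over all libraries and -0.61 within 12 to 24 (edgeR adjusted p = 0.00506, background 36.3%). All 3 groups therefore had lower mean Fcgrt than young, and the size of the difference among those 3 was not resolved over all libraries.

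B2m, the light chain that pairs with Fcgrt, averaged 2875 ± 498 CPM in young, 3458 ± 330.4 in young repopulated, 3176 ± 360 in old and 2819 ± 843 in old repopulated libraries. The old repopulated against young value was -0.03 ± 0.16 log2 units (edgeR adjusted p = 0.926), and young repopulated against young was 0.27 ± 0.21 (edgeR adjusted p = 0.621). Old repopulated libraries 8 and 2 had the lowest B2m, 1566 and 1819 CPM.

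The interaction of age and repopulation was estimated for each member with wide intervals. It was -0.42 ± 0.38 log2 units for Fcgr4 (95% interval -1.21 to 0.36), -0.29 ± 0.20 for Fcgr1 (-0.72 to 0.13) and -0.09 ± 0.28 for Fcgr3 (-0.68 to 0.50). It was -0.09 ± 0.17 for Fcgr2b, -0.02 ± 0.11 for Fcer1g and 0.28 ± 0.24 for Fcgrt (-0.23 to 0.78). The smallest edgeR adjusted p was 0.763, for Fcgr1.

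Fcgr1 and Fcgr4 are known to be induced by interferons, and 17 interferon response genes were set beside them. Their summed level ran from 1396 to 2206 CPM in young, 1555 to 1809 in young repopulated, 1880 to 4039 in old and 851 to 1941 in old repopulated libraries. Old library 3 had the highest sum, 4039 CPM, and the highest Fcgr1, Fcgr2b and Fcgr4 of all libraries (615, 645 and 174 CPM). Old library 5 was second in the sum, at 3360 CPM, and second in Fcgr1 and Fcgr4 (449 and 122 CPM). Old repopulated library 2 had the lowest sum, 851 CPM, and the lowest Fcgr1, Fcgr2b and Fcgr4 (229.6, 331 and 27.5 CPM).

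In old repopulated against old, 4 of the 17 interferon genes were called lower and none higher: Ifit2, Ifit3, Stat2 and Gbp2. Stat2, a signal transducer of type I interferon, fell by 1.06 on the log2 scale (edgeR adjusted p = 0.0165), from 151 ± 56.1 CPM in old (SD, n = 5) to 72.1 ± 13.9 (n = 8). The median over the list was -1.02, beside 0.0037 for all genes and -0.20 for the 6 Fc receptor genes. In old against young 0 of 17 were called by edgeR, with 11 at an unadjusted p under 0.05, 4 by DESeq2 and 11 by voom; the list's median was 0.66. In old repopulated against young 4 of 17 were called lower (Gbp2, Cxcl10, Stat2 and Ifit2). Of the 6 Fc receptor genes, edgeR called 0 in old repopulated against old, where it called 0.278% of all genes. Fcgr1 stood there at -0.28 (95% interval -0.55 to -0.01) and Fcgr4 at -0.51 (-1.01 to -0.01). The fold change was above 0 for 1 of the 6. The part of the interferon genes in the Fcgr1 and Fcgr4 values was not tested.

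**Figure D5:**
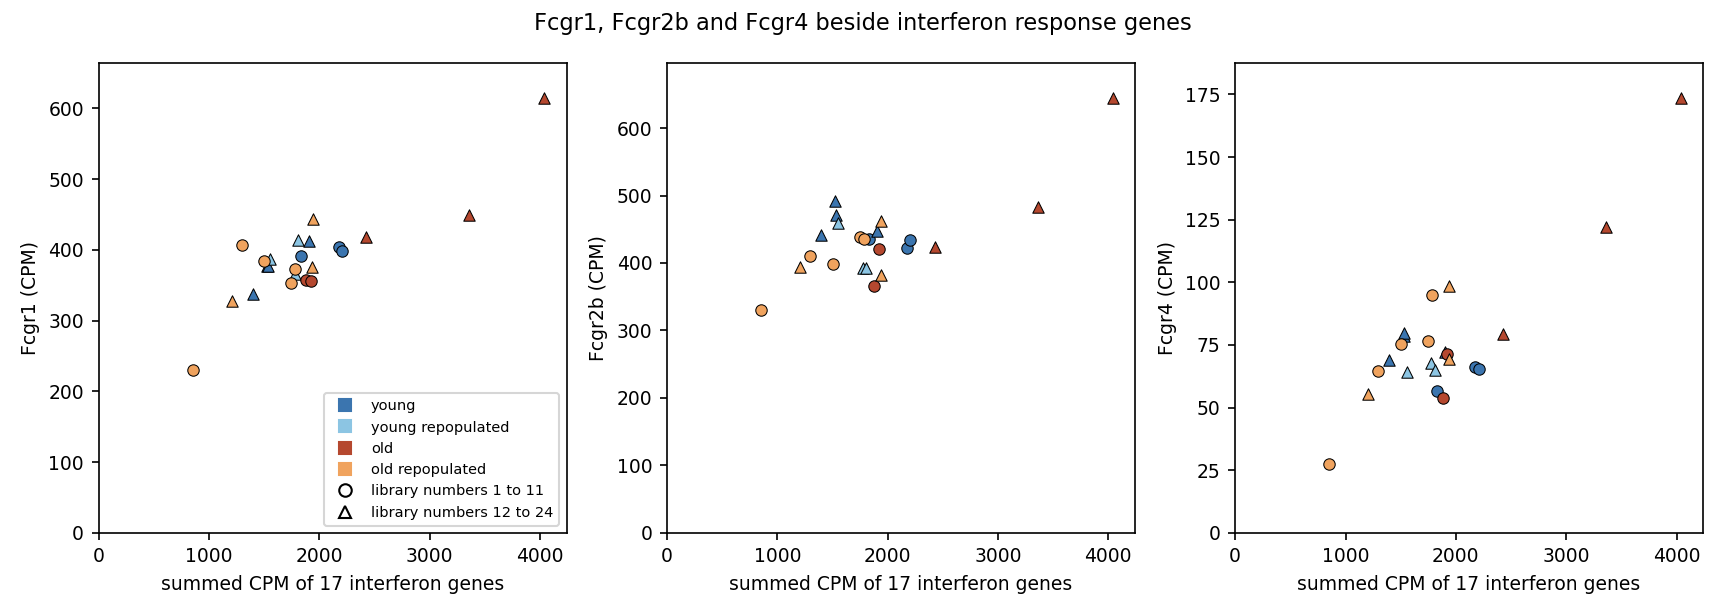
Fcgr1, Fcgr2b and Fcgr4 (CPM) against the summed CPM of 17 interferon response genes, 1 point a library, coloured by group, with circles for library numbers 1 to 11 and triangles for 12 to 24. Old library 3, at a sum of 4039 CPM, is highest in all 3 panels, and old repopulated library 2, at 851, is lowest.

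The kinases and adaptors downstream of the activating receptors did not shift as a block. Of 18 such genes, edgeR called 3 higher (Lat2, Vav3 and Fgr) and 3 lower (Vav2, Pik3r1 and Lcp2) in old repopulated against young, with a list median of -0.08 beside -0.02 for all genes. Vav2, a guanine exchange factor of the Vav family, fell by 0.88 on the log2 scale (edgeR adjusted p = 0.00199). Lat2, a membrane scaffold adaptor, rose by 0.43 ± 0.09 (edgeR adjusted p = 0.00455), and Pik3r1, a regulatory subunit of PI3-kinase, fell by 0.65 (edgeR adjusted p = 0.0049). In old against young 1 of 18 was called, Vav3, a relative of Vav2 (2.41 ± 0.66), and in young repopulated against young 1 of 18, the adaptor Gab2 (0.41 ± 0.10, edgeR adjusted p = 0.0455). Syk itself, the kinase recruited by Fcer1g, stood at 0.20 ± 0.10 in old repopulated against young (edgeR adjusted p = 0.180). In old repopulated against old, and against young repopulated, 0 of 18 were called, with 2 and 1 at an unadjusted p under 0.05, 0 and 0 by DESeq2, and 1 and 5 by voom.

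Of 10 genes of the inhibitory arm, 3 were called higher in old repopulated against young: Dok2, Dok3 and the ubiquitin ligase Cbl. Dok2, a docking adaptor, rose from 2.76 ± 1.15 CPM in young (SD, n = 7) to 14.2 ± 14.7 (n = 8), and those groups overlapped. Inpp5d, the SHIP1 phosphatase that Fcgr2b recruits, stood at -0.24 ± 0.09 (edgeR adjusted p = 0.0846). In old against young 0 of 10 were called by edgeR, with 2 unadjusted, 1 by DESeq2 and 3 by voom. In old repopulated against old the counts were 0, 1, 0 and 0, and in young repopulated against young 0, 1, 0 and 2. Of 10 genes of the phagocytic cup, 3 rose in old repopulated against young, the actin regulators Was, Arpc2 and Arpc1b. Was, the Wiskott-Aldrich protein of macrophage actin cups, rose by 0.39 ± 0.07 there (edgeR adjusted p = 0.00146) and by 0.43 ± 0.09 in young repopulated against young (edgeR adjusted p = 0.0233). It was the only gene of that list called in the latter.

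Fcer1g also serves C-type lectin and paired immunoglobulin-like receptors, some of which were called where the adaptor was not. Of 10 listed genes 7 were tested, and 4 rose in old repopulated against young: Clec4d, Clec4n, Pira2 and Clec4e. The 3 others were not called there: Lilra5, another immunoglobulin-like receptor, stood at 0.09 ± 0.26 log2 units, Cd247 at 0.24 ± 0.92 and Tyrobp, the other ITAM adaptor of microglia, at 0.04 ± 0.09. Clec4d, a lectin of myeloid cells, rose by 4.55 ± 0.84 log2 units (edgeR adjusted p = 0.00146), from 2.88 ± 3.21 CPM in young to 67.7 ± 76.8 in old repopulated libraries. Clec4d and Pira2 also rose in old against young, by 4.15 ± 0.86 and 3.78 ± 0.91 (edgeR adjusted p = 0.0106 and 0.0247). In young repopulated against young 0 of 7 were called by edgeR, with 3 unadjusted, 0 by DESeq2 and 0 by voom. These lectins are known from monocytes and neutrophils. The sum of 8 neutrophil markers ran from 10.2 to 75.8 CPM in young, 59.9 to 136 in young repopulated, 79.8 to 184 in old and 60.2 to 301.0 in old repopulated libraries; the part of those cells was not tested.

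Antibody transcripts, the ligands, were scarce apart from Ighm. Of 13 chains 7 were tested. Ighm, the IgM heavy chain, fell by 1.16 on the log2 scale in old repopulated against young (edgeR adjusted p = 0.0245), from 173 ± 19.04 to 77.7 ± 53.3 CPM (Cd79b also fell in that comparison), and was the only chain called in any comparison. The gamma chains that bind the Fcgr receptors were near the floor: Ighg1 was at 0 in 21 of 23 libraries, and Ighg2b reached at most 1.93 CPM.

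Among the 13 other Fc receptor and Fc receptor-like genes, 6 were tested and Fcrls was the abundant one. Fcrls, a scavenger-type Fc receptor-like gene used as a microglia marker, averaged 3439 ± 566 CPM in young, 1870 ± 92.5 in young repopulated, 2009 ± 562 in old and 1714 ± 460.0 in old repopulated libraries. Each of the other groups lay wholly below young, a separation seen for 0.78% of all genes in old, 6.11% in young repopulated and 1.26% in old repopulated libraries. The lowest young library read 2696 CPM against a highest of 2628 in old repopulated ones. It fell by 0.78 on the log2 scale in old against young (edgeR adjusted p = 0.0340) and by 1.005 in old repopulated against young (edgeR adjusted p = 0.000912). Young repopulated against young was -0.88 ± 0.24 (edgeR adjusted p = 0.0685). Fcrl1 fell by 0.75 in old repopulated against young (edgeR adjusted p = 0.0271). Fcer1a and Ms4a2, the mast-cell subunits that pair with Fcer1g in the IgE receptor, reached at most 0.18 and 0.22 CPM. Fcamr and Ighe were at 0 in all 23 libraries. Trim21, the cytosolic antibody receptor, was present at 14.8 ± 3.44 CPM in young and was called in no comparison.

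The genes whose profiles most resembled each member over the 23 libraries differed between members. Among 9617 genes, those closest to Fcgr3 were Spint1, Pcmtd2 and Abca9 (Spearman's rho 0.925, 0.924 and 0.909; Pearson's r 0.902, 0.927 and 0.973). For Fcgrt they were Tmem44, Sft2d1 and Lpcat3 (rho 0.904, 0.904 and 0.900; r 0.855, 0.865 and 0.861). For Fcer1g they were Plekhb2, Ddhd1 and Atp6v1f (rho 0.921, 0.884 and 0.883; r 0.917, 0.822 and 0.826). Fcgr1 was closest to Trim12c, Ogfr and Slfn8 (rho 0.863, 0.807 and 0.768; r 0.802, 0.776 and 0.889), and Fcgr4 to Hsdl1, Gcnt2 and the interferon gene Rsad2 (rho 0.806, 0.780 and 0.750; r 0.585, 0.836 and 0.896). Fcgr2b was closest to Lgmn, Mef2d and Itpkb (rho 0.785, 0.764 and 0.763; r 0.720, 0.787 and 0.676). With group means removed, rho in the same order of genes was 0.894, 0.895 and 0.9575 for Fcgr3 and 0.852, 0.762 and 0.697 for Fcgrt. For Fcer1g it was 0.813, 0.887 and 0.785, and for Fcgr1 0.805, 0.776 and 0.854. For Fcgr4 it was 0.661, 0.832 and 0.772, and for Fcgr2b 0.773, 0.781 and 0.840.

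Between members, after group means were removed, Fcgr2b with Fcgr4 was highest on both measures (rho 0.780, r 0.872). By rho it was followed by Fcgr4 with Fcer1g (rho 0.701, r 0.670), Fcgr3 with Fcgrt (rho 0.689, r 0.644), Fcgr1 with Fcgr4 (rho 0.608, r 0.864) and Fcgr1 with Fcgr2b (rho 0.492, r 0.771). Lowest on both was Fcgr3 with Fcer1g, at rho -0.531 and r -0.509. These are descriptions over 23 libraries that share groups, runs of numbers and cell composition, and old library 3 lies at the end of several of them.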

How the data were processed

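Poly(A) RNA of 23 microglia libraries was sequenced as single 50-nucleotide reads from a strand-keeping kit, per the labels' protocols, with RNA inputs of 2.4 to 147 ng. The submitters' processing notes name FastQC 0.11.5, STAR, RSEM, limma and the build GRCm38; versions of the others and the annotation are not given in the sources used here. Tables per library were deposited by the authors, holding RSEM expected counts and TPM for 53090 genes; 49035 identifiers matched GENCODE M21 with the same version. No pair of libraries of a group held identical counts.

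Expected counts were rounded to whole numbers, filtered with edgeR's default filter (18720 genes kept), scaled by TMM and fitted over all 4 groups with edgeR 4.0.16's quasi-likelihood test in R 4.3.3, without covariates, with Benjamini-Hochberg adjustment over all genes tested. log2 CPM for likeness used a prior count of 2. TPM were used only to compare genes. Alternatives were DESeq2 1.42.0, limma 3.58.1 voom with sample weights, other scalings and filters, the run of library numbers and leaving out each library; the method was tested on simulated data. Beside the members, listed pathway genes are counted in full and named by rule: at most the 3 called genes of smallest p per list and comparison, otherwise the 1 or 2 most abundant; where edgeR called 5 or fewer genes of a list in 1 direction they are named in full, and genes listed at or near 0 were named after their values were seen. The members and lists were chosen with earlier results of these data known. Some listed marker genes are not reported by name here.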

Additional observations from a re-analysis of the deposited data

Results flagged for a closer look

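Fcgrt in young replicate 3 was 99.7 CPM, far from the other 6 young libraries: its gap to the nearest of them was 0.632 of the group's whole range, above Dixon's critical value of 0.568 for 7 samples. It was the 1 such library among 18 groups of 4 or more libraries tested over the 6 genes, and chance alone marks about 1 in 20 groups. Without it, Fcgrt in old repopulated against young was -0.56 log2 units (edgeR adjusted p = 0.0111).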

How the results depend on the processing

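No paired analysis was possible because the libraries carry unique numbers that no other group shares, and replicate numbers within a group are names only. Over 36 values (6 genes in 6 contrasts), 332 of 372 recomputed values under other settings, and 807 of 828 with 1 library left out, kept their direction and their side of the threshold. The number of Fc receptor genes called moved as follows, and the cause was not tested. A percentage after a setting is the share of all genes called in that fit. For old against young (0) it was 1 with voom (12.6%) or with the run of numbers as a term (3.3%). It was 2 with numbers 12 to 24 alone (15.7%). Old repopulated against old (0) had 1 with numbers 12 to 24 (12.7%). Young repopulated against young (0) had 1 with voom (13.8%) or with only the groups compared (7.5%). Old repopulated against young (1) had 3 with voom (35.5%) and 2 with the run as a term (share not given here). It had 0 with numbers 1 to 11 (0.0107%) and 2 with numbers 12 to 24 (41.1%). Leaving out single libraries gave 1 to 2 there, with 2 only without old repopulated library 1 (25.7%). The value for old repopulated against young repopulated (0) was 1 with voom (17%) and 2 with numbers 12 to 24 (36.3%). Over all genes, the counts called moved by over 1.5 times as well: for old against young from 530 to 970 with DESeq2, 2363 with voom, 1 within numbers 1 to 11 and 2691 within 12 to 24, and for old repopulated against young from 2847 to 6646 with voom.

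Signs turned in values that did not pass the threshold. Upper-quartile scaling gave -0.00419 (Fcgr2b) and -0.00292 (Fcer1g) for old against young, -0.0139 (Fcgr1) for young repopulated against young, -0.0523 (Fcgr4) for old repopulated against young and -0.00467 (Fcer1g) for old repopulated against young repopulated. A minimum mean of 5 CPM gave -0.00946 for Fcgr1 in young repopulated against young and -0.0234 for Fcgr4 in old repopulated against young. Voom gave -0.0207 for Fcgr2b in old against young, -0.0867 for Fcgr4 in old repopulated against young and 0.00143 for the Fcer1g interaction. The run as a term gave -0.0484 for Fcgr1 in young repopulated against young, 0.0668 for Fcgr2b in old repopulated against young repopulated, and 0.0204 and 0.00828 for the interactions of Fcgr2b and Fcer1g. Numbers 1 to 11 gave -0.16, -0.13, -0.00363 and -0.0107 for Fcgr1, Fcgr2b, Fcgr4 and Fcer1g in old against young, 0.0414, 0.14 and 0.12 for Fcgr2b, Fcgr3 and Fcgr4 in old repopulated against old, and 0.0355 for Fcgr3 in old repopulated against young. Numbers 12 to 24 gave 0.0328 for Fcgr1 and -0.00176 for Fcgr4 in old repopulated against young, and -0.0479 for the Fcgrt interaction. With single libraries left out, ranges crossing 0 were -0.0860 to 0.161 (Fcgr2b, old against young), -0.121 to 0.0606 (Fcgr3, old repopulated against old), -0.0165 to 0.0542 (Fcgr1, young repopulated against young), -0.0734 to 0.132 (Fcgr4, old repopulated against young), -0.0121 to 0.0875 (Fcer1g) and -0.0849 to 0.0537 (Fcgr2b) in old repopulated against young repopulated, and -0.0796 to 0.0327 (Fcer1g) and -0.184 to 0.0582 (Fcgr2b) for the interaction. Young repopulated libraries exist only in numbers 12 to 24, so no fit of numbers 1 to 11 includes them.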
